A study of Mus musculus with 6 samples.

Results

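The 10 genes described here encode the postsynaptic apparatus of the neuromuscular junction: the kinase MuSK and its partners Agrn, Lrp4 and Dok7, the clustering protein rapsyn (Rapsn), and the 5 muscle acetylcholine receptor subunits. They were chosen by name as known components of this synapse, with earlier results of these data known, so their unadjusted p-values are descriptions. Each had a single array feature with a unique gene symbol, so all 10 were measured, among 16755 features in all. Expression was measured by 1-colour microarray in the tibialis anterior, a fast lower-leg muscle, of 6 male mice aged 8 weeks. Of these, 3 had a muscle-specific deletion of the transcription factor ATF4 (ATF4 mKO) and 3 were littermate controls without it. All 6 had been fasted for 24 h, so fasting was shared by both groups and was not itself compared. The comparison shows how these mRNAs differ in fasted muscle when ATF4 is missing from muscle. The promoter that drives the deletion, the alleles carried by the controls and the strain are not given in the sources used here. The arrays were made from whole muscle, which also holds nerve terminals and Schwann, vascular and connective tissue cells.

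At the neuromuscular junction the motor nerve secretes agrin, which binds LRP4 on the muscle surface. LRP4 then activates the receptor tyrosine kinase MuSK, with DOK7 as its cytoplasmic activator, and rapsyn anchors acetylcholine receptors beneath the nerve terminal. The receptor is a pentamer with a pair of alpha subunits and single beta and delta subunits. A gamma subunit completes it in fetal or denervated muscle and an epsilon subunit in adult innervated muscle. Most of these genes are transcribed chiefly by the few nuclei beneath the synapse. Transcription depends on E-boxes (CANNTG) bound by myogenic factors such as myogenin, and at some of the genes on an N-box (CCGGAA), which binds the Ets factor GABP. ATF4 binds, with C/EBP proteins, a composite site with the core TGATGNAA, and CREB-family factors bind the cyclic AMP response element TGACGTCA or its short form TGACG.

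RefSeq promoter windows of assembly GRCm38.p6, running from 250 bases before to 50 bases after a transcription start, were matched for 7 of the 10 genes by symbol. Chrnd, Rapsn and Lrp4 had no window, so no motif was searched for them. Dok7 and Agrn had 2 windows each, which gives 9 windows in all. The 4 shown here are those of Musk, which had the smallest p-value of the 10 genes, of Chrna1, whose window holds the composite site, and of Chrng and Chrne, the fetal and adult subunits. Each line gives the 250 bases before the start, 5′ to 3′ on the strand of the gene. Capitals mark E-boxes, the N-box in Chrne and the composite site in Chrna1.
Musk promoter, chr4:58285712-58285961, plus strand: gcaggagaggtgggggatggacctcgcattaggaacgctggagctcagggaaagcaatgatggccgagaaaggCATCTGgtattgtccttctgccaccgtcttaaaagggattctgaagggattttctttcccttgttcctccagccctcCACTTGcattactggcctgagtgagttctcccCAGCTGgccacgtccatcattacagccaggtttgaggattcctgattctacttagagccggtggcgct
Chrna1 promoter, chr2:73580339-73580588, minus strand: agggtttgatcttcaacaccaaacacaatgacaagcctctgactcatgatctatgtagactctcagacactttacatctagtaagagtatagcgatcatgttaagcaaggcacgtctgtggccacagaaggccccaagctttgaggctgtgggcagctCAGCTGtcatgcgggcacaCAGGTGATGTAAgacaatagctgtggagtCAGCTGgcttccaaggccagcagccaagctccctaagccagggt
Chrng promoter, chr1:87205561-87205810, plus strand: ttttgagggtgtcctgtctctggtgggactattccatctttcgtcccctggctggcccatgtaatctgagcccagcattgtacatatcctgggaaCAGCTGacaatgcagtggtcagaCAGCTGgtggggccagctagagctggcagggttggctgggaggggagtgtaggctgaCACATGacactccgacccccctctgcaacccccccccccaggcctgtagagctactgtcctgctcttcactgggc
Chrne promoter, chr11:70619195-70619444, minus strand: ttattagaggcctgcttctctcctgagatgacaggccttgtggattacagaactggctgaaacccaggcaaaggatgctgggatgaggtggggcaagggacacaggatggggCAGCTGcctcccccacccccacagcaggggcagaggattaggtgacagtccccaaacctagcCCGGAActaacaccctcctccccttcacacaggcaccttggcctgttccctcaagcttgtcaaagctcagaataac

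Motifs were searched on both strands of the whole 300-base windows. The E-box CAGCTG, a form of CANNTG, was found in 4 of the 9 windows, at position -68 in Musk, -92 and -44 in Chrna1, -155 and -132 in Chrng and -138 in Chrne. Positions give the start of the match, counted from -1 at the base before the transcription start. Of all 32851 promoter windows in the table, 16.3% held CAGCTG. The wider CANNTG was found in 7 of the 9 windows (77.8%), near the 72.3% of all windows, and was absent from the other window of Dok7 and of Agrn. The N-box was found in 1 of the 9 windows, that of Chrne, at -76, and in 14.9% of all windows. The composite site TGATGNAA was found in 1 of the 9 windows, that of Chrna1, as TGATGTAA at -69, where it overlaps an E-box CAGGTG that begins at -73. It was found in 3.97% of all windows. The short form TGACG was found in Chrnb1, at -6, and in 20.8% of all windows, and the full TGACGTCA in 0 of the 9 windows and in 1.79% of all windows. These matches describe letters in the sequence only.

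Values are log2 expression per mouse, on the scale that RMA gives, and a fold change is the ATF4 mKO mean minus the control mean with limma's moderated standard error. Each feature has its own probes, so the results compare levels between mice, and between genes a level is given only as above or below the median over all features, as a rough guide to signal. The Atf4 feature averaged 8.73 ± 0.06 (SD, n = 3) in control and 6.92 ± 0.17 (SD, n = 3) in ATF4 mKO muscle and was lower in every ATF4 mKO mouse. Over all features, 2 of 16755 (0.0119%) passed limma's threshold of an adjusted p under 0.05, and 518 (3.09%) had an unadjusted p under 0.05. Each of the 10 fibre marker genes measured had a level above the median over all features.

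Musk mRNA was lower in all 3 ATF4 mKO mice than in any control, and Rapsn mRNA was higher in all 3. None of the 10 genes passed limma's adjusted threshold in either direction, and the smallest adjusted p among them was 1.00. At an unadjusted p under 0.05 there were 2 of the 10, Musk lower and Rapsn higher, against backgrounds of 1.71% lower and 1.38% higher over all features. The groups did not overlap at 3 of the 10, which were Musk, Rapsn and the receptor subunit Chrnd, against 7.78% of all features (3.89% lower and 3.89% higher). The median log2 fold change of the 10 genes was 0.05, and that of all features was 0.0013.

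**Figure D1:**
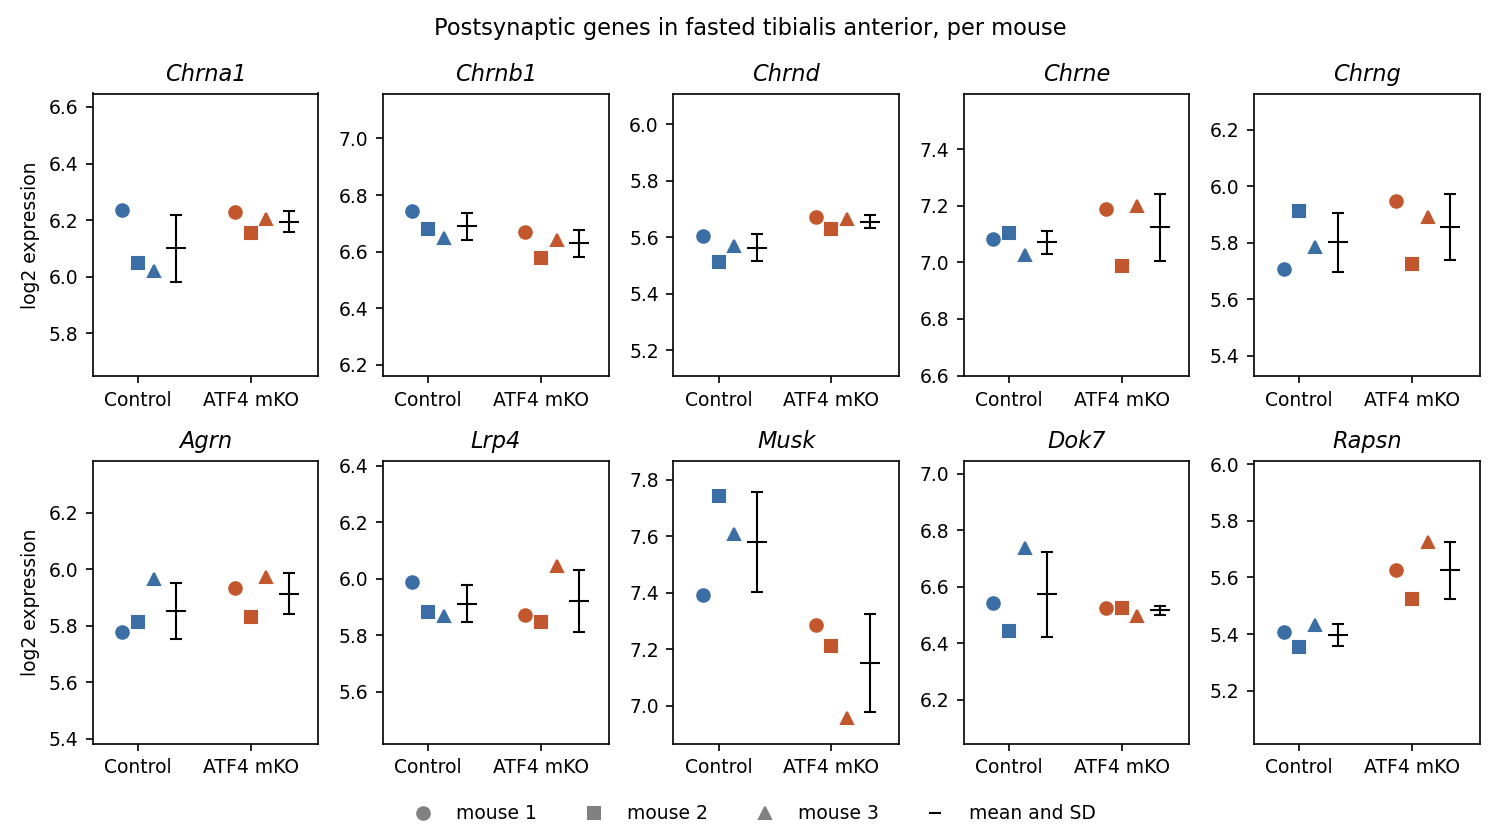
Log2 expression of the 10 genes in each mouse (vertical axis, a span of the same height in every panel), with control in blue, ATF4 mKO in orange, and the mean and SD of 3 mice in black. The Musk points of the ATF4 mKO mice (6.96 to 7.29) lie below those of the controls (7.39 to 7.74), and the Rapsn points (5.52 to 5.73) above (5.36 to 5.43), while 7 of the 10 genes overlap.

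Musk encodes the muscle-specific receptor tyrosine kinase on which the whole postsynaptic specialisation depends. Its log2 expression (feature 6913824) was 7.39, 7.74 and 7.61 in control mice 1, 2 and 3 and 7.29, 7.21 and 6.96 in ATF4 mKO mice 1, 2 and 3. The highest ATF4 mKO mouse lay 0.11 below the lowest control, and ATF4 mKO mouse 3 was the lowest of the 6. The means were 7.58 ± 0.18 and 7.15 ± 0.17 (SD, n = 3 each). This is a log2 fold change of -0.43 ± 0.12 (SE). ATF4 mKO muscle thus held 74.3% of the control signal (95% interval 61.0% to 90.5%). The unadjusted p was 0.00856 and the adjusted p 1.00 in limma, and 95 of the 16755 features had a p as small or smaller. Permuting the mice exactly gave a two-sided p of 0.10 for Musk, and groups of 3 can give no smaller value. Without each mouse in turn the log2 fold change of Musk stayed between -0.52 and -0.33, with unadjusted p-values of 0.00426 to 0.0299. It was nearest to 0 without ATF4 mKO mouse 3 and farthest without control mouse 1. For a single gene in whole muscle, fewer cells or nuclei that express it and less mRNA in each cannot be told apart. The 95% intervals of the other 9 genes all lay above the Musk estimate of 74.3% of control, the lowest bound being 82.9%, for Dok7. The interval of Musk itself, which reached 90.5%, overlapped those of Dok7, Chrnb1 (from 85.4%), Lrp4 (from 87.8%) and Chrng (from 89.4%). Musk had the lowest log2 fold change of these genes, and differences between genes were not tested.

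Rapsn encodes rapsyn, the membrane-associated scaffold that holds acetylcholine receptors in clusters. Its log2 expression (feature 6879015) was 5.41, 5.36 and 5.43 in the controls and 5.63, 5.52 and 5.73 in the ATF4 mKO mice. The groups were separated by 0.09, and ATF4 mKO mouse 3 was the highest, the same mouse that was lowest for Musk. The means were 5.40 ± 0.04 and 5.63 ± 0.10 (SD, n = 3 each). This is a log2 fold change of 0.23 ± 0.08 (SE), and the signal was 117% of that in control (95% interval 103% to 133%). In limma the unadjusted p was 0.0223 and the adjusted p 1.00, and the exact permutation p was again 0.10. The Rapsn feature had a level below the median over all features. Without 1 mouse the log2 fold change of Rapsn was lowest at 0.18, when ATF4 mKO mouse 3 was left out, and highest at 0.28, when mouse 2 of that group was. The unadjusted p stayed under 0.05 in 3 of these 6 fits, and was 0.0662, 0.0602 and 0.0730 without control mouse 2, ATF4 mKO mouse 1 and ATF4 mKO mouse 3.

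The other 3 genes of the MuSK pathway had overlapping groups. Agrn encodes agrin, of which the nerve makes the synaptic form and muscle another splice form. It stood at 5.78, 5.81 and 5.97 in the controls and 5.93, 5.83 and 5.97 in the ATF4 mKO mice, a log2 fold change of 0.06 ± 0.08 (SE) that ran from 0.02 to 0.12 without 1 mouse. Lrp4, the agrin receptor, stood at 5.99, 5.88 and 5.87 in the controls and 5.87, 5.85 and 6.05 in the ATF4 mKO mice. ATF4 mKO mouse 3 was the highest of the 6 for Lrp4 and the other two ATF4 mKO mice lay below the middle control. The log2 fold change of Lrp4 was 0.0095 ± 0.08 (SE) with a 95% interval of 87.8% to 115% of control, and its sign changed with the mouse left out. Dok7, the adaptor that activates MuSK from inside the fibre, stood at 6.54, 6.44 and 6.74 in the controls and 6.53, 6.53 and 6.50 in the ATF4 mKO mice. The controls spanned all the ATF4 mKO values for Dok7. The log2 fold change of Dok7 was -0.058 ± 0.09 (SE) with an interval of 82.9% to 111% of control, and it was 0.02 without control mouse 3.

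Of the 5 receptor subunits, 4 had slightly higher and 1 slightly lower means in ATF4 mKO muscle, and none had an unadjusted p under 0.05 in limma. Without variance moderation Chrnd had an unadjusted p of 0.0392. Chrna1 encodes the alpha subunit, which carries the main part of the acetylcholine binding sites. It stood at 6.24, 6.05 and 6.02 in the controls and 6.23, 6.15 and 6.20 in the ATF4 mKO mice. Control mouse 1 lay above all 3 ATF4 mKO mice for Chrna1 and the other two controls lay below them. Its log2 fold change was 0.09 ± 0.08 (SE), and it ran from 0.05 without control mouse 3 to 0.16 without control mouse 1. Chrnb1, the beta subunit that rapsyn contacts, stood at 6.74, 6.68 and 6.65 in the controls and 6.67, 6.58 and 6.64 in the ATF4 mKO mice. The groups overlapped in the single pair of ATF4 mKO mouse 1 and control mouse 3, and the log2 fold change was -0.061 ± 0.07 (SE), which leaves 95.8% of the control signal.

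Chrnd, the delta subunit, stood at 5.61, 5.51 and 5.57 in the controls and 5.67, 5.63 and 5.66 in the ATF4 mKO mice. Every ATF4 mKO mouse lay above every control, by at least 0.02. The log2 fold change of Chrnd was 0.09 ± 0.07 (SE) with an interval of 95.3% to 119% of control, and the unadjusted p in limma was 0.224. Its level lay below the median of all features. In the RefSeq gene order, Chrnd and Chrng lie next to each other on chromosome 1 with 0 protein-coding genes between them.

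Chrng and Chrne encode the alternative subunits by which fetal and adult receptors differ. Chrng, the fetal gamma subunit, stood at 5.71, 5.91 and 5.78 in the controls and 5.95, 5.72 and 5.89 in the ATF4 mKO mice. Chrne, the adult epsilon subunit, stood at 7.08, 7.11 and 7.02 in the controls and 7.19, 6.99 and 7.20 in the ATF4 mKO mice. For both genes the groups overlapped, and ATF4 mKO mouse 2 lay lower than the other two ATF4 mKO mice. The log2 fold changes were 0.05 ± 0.09 for Chrng and 0.05 ± 0.08 for Chrne (SE), and both genes stood at 104% of control. The 95% intervals ran from 89.4% to 120% of control for Chrng and from 90.5% to 119% for Chrne. Without 1 mouse the log2 fold change ran from 0.0066 (control mouse 1 left out) to 0.12 (ATF4 mKO mouse 2) for Chrng and from 0.02 (ATF4 mKO mouse 3) to 0.12 (ATF4 mKO mouse 2) for Chrne. The Chrng feature had a level just below the median over all features.

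**Figure D2:**
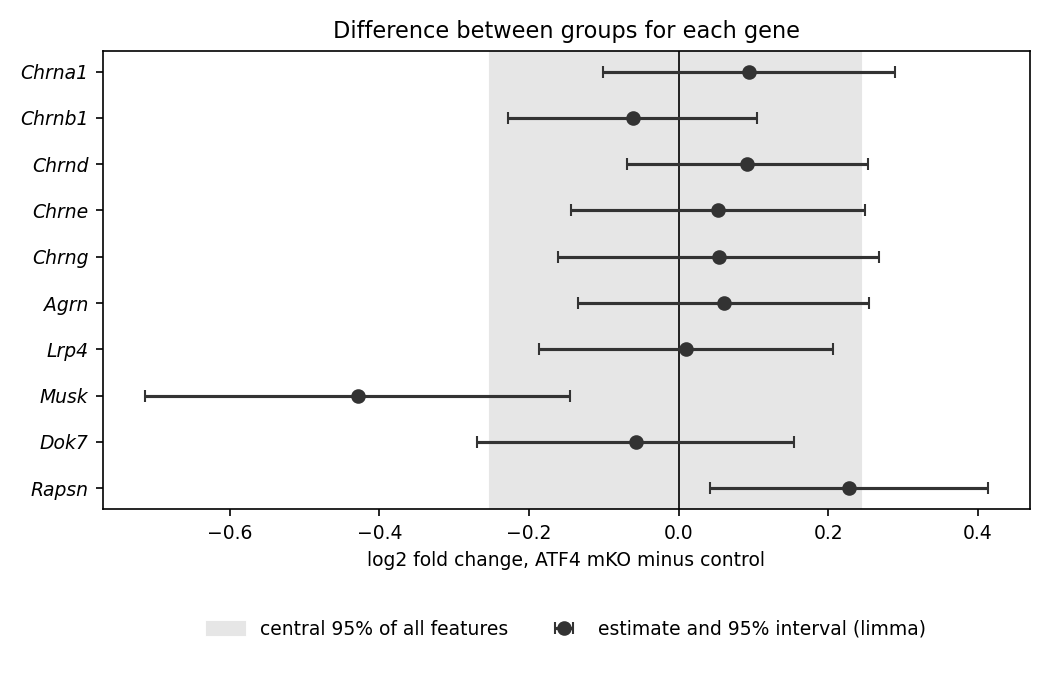
Log2 fold change, ATF4 mKO minus control, of each gene (points) with its 95% interval from limma (bars, 3 mice per group), over a grey band that holds the central 95% of all 16755 features (-0.25 to 0.24). Musk at -0.43 lies outside the band and Rapsn at 0.23 inside it near its upper edge, and the intervals of the other 8 genes include 0.

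Across the 7 genes with overlapping groups, the log2 fold changes ran from -0.061 to 0.09, and the 95% intervals reached from 82.9% to 122% of control at the widest. No mouse was the highest or the lowest for all 10 genes. ATF4 mKO mouse 3 was the highest of the 6 for 4 genes (Chrne, Rapsn, Lrp4 and Agrn) and the lowest for Musk. ATF4 mKO mouse 2 was the highest for 0 genes and the lowest for 3 (Chrnb1, Chrne and Lrp4). The mean of the 10 genes per mouse ran from 6.25 to 6.27 in controls and from 6.20 to 6.29 in ATF4 mKO muscle.

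**Figure D3:**
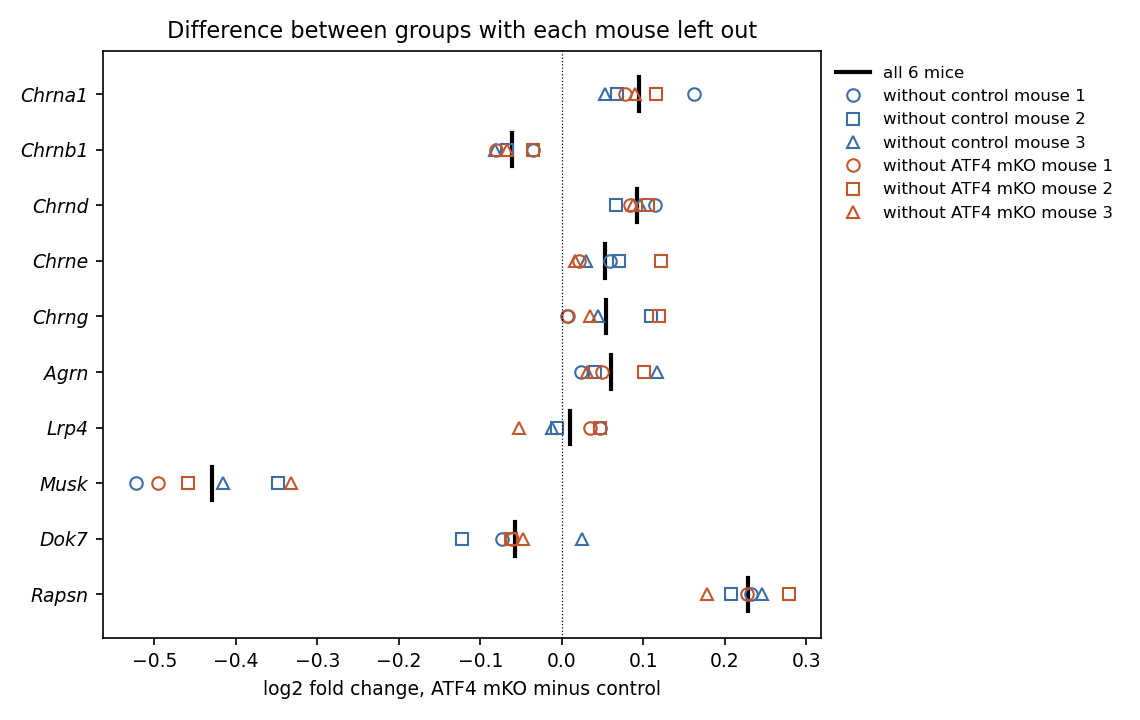
Log2 fold change of each gene with all 6 mice (black bar) and without each mouse in turn (open symbols, blue for a control and orange for an ATF4 mKO mouse left out). All symbols of Musk lie between -0.52 and -0.33 and those of Rapsn between 0.18 and 0.28, and those of Lrp4 and Dok7 fall on both sides of 0.

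The genes whose values over the 6 mice were most like those of Musk were listed among 7619 genes that lay above the median level. They were Map3k2, a MAP kinase kinase kinase gene, Vps29, of the retromer coat, Tex261, Slc39a7, a zinc transporter gene, and Ghitm, of the mitochondrial inner membrane. Pearson's r with Musk ran from 0.963 to 0.987 and Spearman's rho from 0.943 to 1.00 over 6 mice, and 59 genes had an r above 0.9. These were picked as the highest of many, and the points share the arrays and the genotype difference. Their log2 fold changes were smaller than that of Musk, from -0.17 for Vps29 to -0.075 for Tex261.

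Genes that act around MuSK and the receptor were examined in 6 further lists, and 0 of their genes passed limma's adjusted threshold in either direction, under a background of 0.0119%. At an unadjusted p under 0.05 there were also 0 of their 85 genes, against 3.09% of all features. Among 22 partners of MuSK signalling the median log2 fold change was -0.0074. The smallest p-values belonged to Pdzrn3, a ubiquitin ligase that acts on MuSK, with 0.22 ± 0.13 (SE), Dvl1, a Dishevelled protein, with 0.10 ± 0.07 (SE), and Crkl, an adaptor recruited by DOK7, with -0.096 ± 0.07 (SE). The 17 genes of the synaptic basal lamina had a median of 0.01. Their smallest p-values were those of the nidogen gene Nid2 with 0.15 ± 0.07 (SE), the proteoglycan gene Bgn with 0.15 ± 0.10 (SE) and the perlecan gene Hspg2 with 0.11 ± 0.08 (SE).

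The 14 scaffold genes had a median log2 fold change of 0.04, led by Rdx (radixin) with 0.13 ± 0.07 (SE), Plec (plectin) with 0.09 ± 0.07 (SE) and Pdlim7 with 0.11 ± 0.09 (SE). The 16 genes of neuregulin signalling and synaptic transcription had a median of 0.01. Of these, the myogenic factor gene Myf6 averaged 10.08 in control and 9.89 in ATF4 mKO muscle, a log2 fold change of -0.19 ± 0.09 (SE, unadjusted p = 0.0573 in limma) with overlapping groups. The neuregulin receptor gene Erbb3 had 0.13 ± 0.08 (SE) and the calmodulin kinase gene Camk2b 0.09 ± 0.07 (SE). Among 8 genes linked to congenital myasthenia in people, mostly genes of glycosylation, the median was -0.032. Gfpt1, the entry enzyme of hexosamine synthesis, had -0.11 ± 0.07 (SE), Plec again had 0.09, and Gmppb, which makes GDP-mannose, had -0.091 ± 0.09 (SE). The 9 other nicotinic receptor subunits measured, which neurons use, had a median of -0.099, with 5 below and 4 above 0. With ATF4 mKO mouse 3 left out this median was -0.12, with ATF4 mKO mouse 1 left out it was 0.0062, and it was -0.0058 without control mouse 2 and -0.023 without control mouse 3. Of the 9 subunits, 1 had a level above the median over all features. The smallest p-values were those of Chrnb3 with -0.11 ± 0.09 (SE), Chrna7 with -0.17 ± 0.14 (SE) and Chrna4 with -0.10 ± 0.10 (SE).

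**Figure D4:**
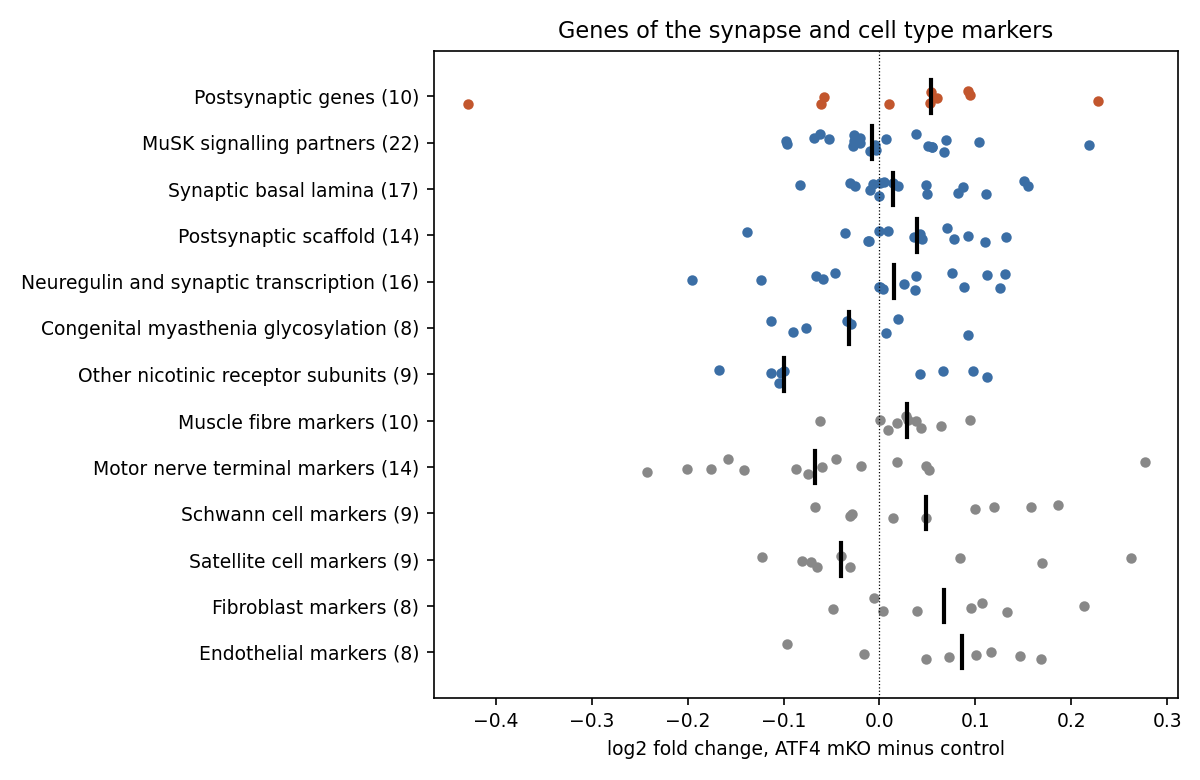
Log2 fold change, ATF4 mKO minus control, of each measured gene (points) in the postsynaptic genes (orange), the 6 lists around them (blue) and the cell type markers (grey), with the list median as a black bar and the number of genes in brackets. Musk at -0.43 is the lowest point shown, and list medians run from -0.099 to 0.09.

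Markers of fibres, motor nerve terminals and other cell types are given beside the Musk and Rapsn values. Their part in those values was not tested. The mean of 10 fibre markers per mouse was 11.62 in every control and 11.63 to 11.66 in ATF4 mKO muscle. Their median log2 fold change was 0.03, with 9 of the 10 above 0. Ryr1 had a log2 fold change of 0.09 ± 0.08 (SE), Ckm 0.06 ± 0.08 (SE) and Mylpf, the only fibre marker below 0, -0.062 ± 0.09 (SE). Of 14 motor nerve terminal markers 1, Syp, had a level above the median over all features, and the other markers, Mnx1 among them, lay below it. Their mean per mouse was 5.12 to 5.21 in controls and 5.05 to 5.17 in ATF4 mKO muscle, and their median log2 fold change was -0.067, with 10 of the 14 below 0. At an unadjusted p under 0.05 were Mnx1, a motor neuron transcription factor gene, with -0.24 ± 0.09 (SE), and Syp, of synaptic vesicles, with 0.28 ± 0.10 (SE), in opposite directions. Snap25 had -0.18 ± 0.08 (SE). Syp and Syt2 were the nerve markers with the highest levels, and Syt2 had -0.16 ± 0.11 (SE).

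The 9 Schwann cell markers measured averaged 6.02 to 6.16 per mouse in controls and 6.05 to 6.32 in ATF4 mKO muscle. Their median log2 fold change was 0.05, with 6 of 9 above 0. Without ATF4 mKO mouse 3, the mouse with the lowest Musk and the highest Rapsn value, the Schwann cell median was -0.026. Egr2 had 0.19 ± 0.13 (SE), Mbp 0.12 ± 0.10 (SE), Ngfr 0.10 ± 0.08 (SE) and Pmp22 -0.031 ± 0.15 (SE). Satellite cell markers averaged 6.12 to 6.19 in controls and 6.09 to 6.23 in ATF4 mKO muscle, with a median log2 fold change of -0.040 and 6 of 9 below 0. The smallest p-values were those of genes with both signs. Vcam1 had 0.26 ± 0.14 (SE), Sdc4 0.17 ± 0.12 (SE) and Chodl -0.12 ± 0.11 (SE). Fibroblast markers averaged 7.90 to 8.08 and 7.92 to 8.15, with a median of 0.07 and 6 of 8 above 0. Their members named by the rule were Col1a1 at 0.13 ± 0.09, Lum at 0.21 ± 0.19, Col1a2 at 0.10 ± 0.09, Dpt at -0.0060 ± 0.08 and Dcn at 0.0039 ± 0.08 (SE). Endothelial markers averaged 6.93 to 7.03 and 6.99 to 7.12, with a median of 0.09 and 6 of 8 above 0. Their Tie1 had 0.17 ± 0.07 (SE, unadjusted p = 0.0389 in limma), Cdh5 0.15 ± 0.08 (SE), Kdr 0.10 ± 0.10 (SE) and Pecam1 -0.016 ± 0.08 (SE). Of the 58 marker genes measured 0 passed limma's adjusted threshold, and 3 (5.17%; Mnx1, Syp and Tie1) had an unadjusted p under 0.05, against 3.09% of all features.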

How the data were processed

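The deposited values are log2 expression for each feature in each mouse, which the authors made with GCOS and RMA using the mouse build mm9, per the submitters' processing notes. The log2 scale was read from the values, which ran from 1.63 to 13.0. No source used here gives versions. RMA includes background correction, quantile normalisation and probe summaries, and it can compress changes of low features. Precision is limited by the number of arrays.

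Gene names came from the platform annotation and were updated by Entrez ID through RefSeq (GRCm38.p6). All 16755 features were fitted with limma 3.58.1 (R 4.3.3; lmFit, eBayes, group as the only term) and p-values were adjusted by Benjamini-Hochberg over all of them. The fit was also run on simulated independent normal values with added shifts, which checks the code only. Where a listed gene had several features, as Syne1 did, the one with the highest mean was used.

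The 10 genes, the lists and the naming rule were chosen with earlier results of these data known. The rule named all 10, up to 3 genes per list with the smallest p, the 2 highest markers of each cell type other than fibres, Atf4, and 5 genes most like Musk. Protein features planned for the receptor and MuSK were not analysed here. Alternatives were quantile normalisation, median centring, the mouse number as a block, 2 filters on low features, features with 1 symbol, other variance models, array weights, another threshold and leaving out each mouse. No label says that the numbers pair the mice, so they were not taken as pairs. Mice numbered alike had deviations from their group means that correlated at -0.0021, 0.069 and 0.14. For mice numbered differently the correlations ran from -0.12 to 0.06, so these values do not exclude a pairing.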

Additional observations from a re-analysis of the deposited data

How the results depend on the processing

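No alternative called any of the 10 genes: the count was 0 in every fit, also at an adjusted p under 0.10. The direction of Musk, Rapsn, Agrn and all 5 receptor subunits held in every alternative in which they were fitted. Much of this was fixed in advance. The filters on features, the variance models and the block cannot change the log2 fold change of a gene. For Musk, Rapsn and Chrnd, whose groups did not overlap, leaving out 1 mouse cannot change the sign. Musk ran from -0.52 to -0.33 on the log2 scale, with unadjusted p-values of 0.00426 to 0.0396. With the mouse number as a replicate block Musk stayed at -0.43, Rapsn at 0.23 and the median of the 10 genes at 0.05, as this balanced design fixes. Only the errors and p-values could move, and the unadjusted p in limma was 0.0141 for Musk and 0.0280 for Rapsn. Mice 2 and 3 of each group deviated most like their own number and mouse 1 did not. The block reduced the features called from 2 to 1. Lrp4 turned to -0.020 with array weights, and without each mouse it ran from -0.053 to 0.047 (-0.0060 without control mouse 2, -0.013 without control mouse 3, -0.053 without ATF4 mKO mouse 3). Dok7 turned to 0.025 without control mouse 3 and reached -0.12 without control mouse 2. The median of the 10 genes ran from 0.02 to 0.10 without each mouse; without the lower 50% of features, which left 7 of them, it was 0.0095. The number of all features called became 4 at an adjusted p under 0.10, 4 where features had to have 1 symbol, 1 after centring on medians, 0 without variance moderation (limma; 632 had an unadjusted p under 0.05) and 7 with an intensity trend and robust moderation. It was 5 and 7 where the lowest 33.3% and the lower 50% were dropped, and 1 when any single mouse was left out. The cause of these changes was not tested. None of the genes in the 12 other lists was called in any alternative. Of the 180 list medians under the alternatives 8 changed sign, in 6 lists: MuSK partners 3 times (up to 0.0061 without control mouse 1), basal lamina (-0.010 without control mouse 1), scaffold (-0.0069 without control mouse 3), other nicotinic subunits and Schwann cells as given above, and nerve terminals (0.28 without the lower 50% of features, where 1 gene remains). Without variance moderation 3 of the 10 genes had an unadjusted p under 0.05, Chrnd being the other (0.0392).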
